A study of Mus musculus with 26 samples.

Results

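AW112010, Gm39469, Malat1, Neat1 and Gas5 are 5 genes annotated as noncoding, out of 54375, 54863 and 57186 genes listed for bone marrow monocytes, small peritoneal macrophages (SPMs) and lung macrophages, respectively. They were taken by name from the monocyte and SPM tables and by the same gene identifier from the lung table. AW112010 and Gm39469 were chosen on their genotype pattern in these samples, so their genotype values are a description with no test, whereas Malat1, Neat1 and Gas5 were tested between genotypes. The annotation calls all of them lincRNA except Gas5, a processed transcript.

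The 26 samples were sorted by flow cytometry from naïve female mice, either WT C57BL/6J animals bought from Charles River or ACKR2-/- animals bred in-house in Glasgow. ACKR2-/- mice lack the atypical chemokine receptor ACKR2, which scavenges inflammatory CC chemokines. Monocytes and SPMs had 4 samples per genotype, each pooled from 5 mice, and MHCII negative lung macrophages had 5 per genotype, with no number of mice stated. By the study's reporting summary the mice were 8 to 10 weeks old by default, and vendor and breeding site cannot be told apart from genotype.

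AW112010 is transcribed in macrophages and T cells exposed to interferon-gamma or bacterial products, and part of it is known to be translated despite its noncoding annotation. Malat1 and Neat1 lie side by side and stay in the nucleus, Malat1 at nuclear speckles, where splicing factors gather, and Neat1 as the scaffold of paraspeckles. Gas5 is a snoRNA host gene, whose introns carry box C/D snoRNAs while its spliced RNA is short-lived and depends on translation and growth state. No role is stated here for Gm39469.

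The sequence around the start of AW112010 is shown because AW112010 is the member known to respond to interferon-gamma, and the response genes of that cytokine are described beside it. In GRCm38 it spans 11047617 to 11050566 on chromosome 19, minus strand, and in GENCODE M21 11047612 to 11055808 with 2 transcripts. Only the window at its RefSeq start was searched as a promoter. The promoter, from RefSeq on GRCm38.p6 at chr19:11050517-11050816, covers 250 bases before the start and 50 after. Capitals mark a match on the opposite strand to the kB motif, which reads GGGA, any 2 bases and TTCC, 70 bases before the start, a match that 1.47% of 32851 RefSeq promoters hold.
AW112010 promoter: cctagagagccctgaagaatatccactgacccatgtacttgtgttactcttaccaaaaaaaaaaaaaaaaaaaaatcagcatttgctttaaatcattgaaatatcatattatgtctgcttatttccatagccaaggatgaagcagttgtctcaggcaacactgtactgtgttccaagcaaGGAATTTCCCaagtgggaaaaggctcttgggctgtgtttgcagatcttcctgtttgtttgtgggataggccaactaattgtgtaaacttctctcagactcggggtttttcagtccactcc

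A stretch of its first exon, from GENCODE M21 at chr19:11050447-11050506, holds a match in capitals to the interferon-stimulated motif ISRE, which reads GAAA, any 2 bases and GAAA, at base 86 of the 179 bases of the exon. Of 134938 transcript windows of the same length, 1.72% hold this motif on either strand.
AW112010 first exon stretch: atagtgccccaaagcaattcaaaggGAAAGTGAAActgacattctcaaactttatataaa

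Both strands were searched for these motifs and for the STAT motif GAS, TTCNNNGAA. ISRE is in 3.44% and GAS in 8.3% of promoters, and neither was in the AW112010 promoter window. RefSeq promoters were matched for 4 of the 5 genes, and the windows of Gm39469, Malat1 and both Gas5 starts held none of these letters. A match is a description of letters, not of a bound site.

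Gm39469 is shown because its reads could be shared with related genes. It spans 124270358 to 124282139 on chromosome 9, minus strand, and has 4 exons and 461 bases. RefSeq lists it as protein coding, and its longest reading frame has 68 codons. The transcript aligned over at least 200 bases at 85% identity or more with 29 other genes. Exon 2 is set beside the matching stretch of Zfp932, a zinc finger gene on chromosome 5, and of its neighbour 2010315B03Rik, all from GENCODE M21. Capitals mark bases that differ from or are absent in Gm39469, and identity was 90% for Zfp932 and 91.3% for 2010315B03Rik.
Gm39469 exon 2, chr9:124271370-124271496: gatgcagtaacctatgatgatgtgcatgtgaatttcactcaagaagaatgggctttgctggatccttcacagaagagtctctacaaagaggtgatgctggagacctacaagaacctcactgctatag
Zfp932 stretch: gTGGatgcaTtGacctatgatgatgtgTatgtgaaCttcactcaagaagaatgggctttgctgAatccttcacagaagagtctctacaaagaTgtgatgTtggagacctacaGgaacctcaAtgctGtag
2010315B03Rik stretch: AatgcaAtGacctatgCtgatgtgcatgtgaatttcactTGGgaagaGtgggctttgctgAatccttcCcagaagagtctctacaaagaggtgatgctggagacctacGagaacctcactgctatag

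Gas5 lies on the plus strand of chromosome 1, from 161034422 to 161038539, and RefSeq gives it 2 starts. RNAs of snoRNA host genes often begin with a C and a run of pyrimidines. The windows of 10 bases before and 20 after each start are printed with such a run, a C and at least 4 further pyrimidines, in capitals.
Gas5, chr1:161034591-161034620: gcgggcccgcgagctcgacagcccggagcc
Gas5, chr1:161035156-161035185: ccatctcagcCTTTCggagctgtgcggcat
Snhg7, chr2:26640225-26640254: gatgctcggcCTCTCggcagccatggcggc
Snhg8, chr3:123508317-123508346: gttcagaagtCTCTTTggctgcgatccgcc

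The run opens the second Gas5 start, 2 of 18 starts of other snoRNA host genes, Snhg7 and Snhg8, and 2.51% of all starts in the RefSeq table. No further use is made of it here.

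The authors deposited counts of reads per gene. Between 12781144 and 35400034 reads per sample fell on genes, so that 3 reads, the limit that a count of 0 allows, came to 0.0847 to 0.235 CPM, the unit of reads scaled to library size; such limits cover counting error only. Ackr2 itself had 0 to 2 reads in monocytes, too few to check labels, 5 to 9 in WT and 0 in ACKR2-/- SPMs, and 7 to 50 in ACKR2-/- lung samples. Among WT lung samples 4 had 150 to 469 Ackr2 reads, but the library labelled WT replicate 5 had 0. The library labelled WT lung replicate 3 stood apart in another way, with a summed MHC class II level of 96644 CPM against 3744 to 9372 in the other lung samples, and a pan-macrophage marker sum of 13872 against 1624 to 3866. Lung genotype results are therefore also given without both. The sum of epithelial markers, genes of lung lining cells, was 5687 to 16681 CPM in 8 lung samples, above the pan-macrophage sum in all of these but WT replicate 3. It was only 370 CPM in WT replicate 5 and 232 CPM in ACKR2-/- replicate 4, in which monocyte marker sums were 216 and 161 CPM against 924 to 1863 in the other 8. The part of this signal in the lung levels was not tested, and genotype values without WT replicate 5 and ACKR2-/- replicate 4 are given beside those of each gene. In ACKR2-/- monocytes 9 of 9 tested T cell markers were called higher, with sums of 68.5 to 121 CPM against 4.45 to 5.47 in WT. Monocyte marker sums were lower in ACKR2-/- monocytes, at 10248 to 15524 CPM, than in WT, at 16644 to 17903, and B cell marker sums were higher, at 999 to 1221 against 673 to 865. All 7 neutrophil markers were lower there, with 0 called by edgeR and 2 by DESeq2. Their sums overlapped, at 15618 to 53519 CPM in ACKR2-/- and 37063 to 74275 in WT monocytes. All 8 tested pan-macrophage markers were also lower, with 0 called by edgeR and 1 by DESeq2. In SPMs pan-macrophage markers summed to 9098 to 17164 CPM. WT SPM replicate 1 had a monocyte marker sum of 5124 CPM against 1379 to 1935 in the other 7 SPM samples, and the lowest dendritic cell marker sum, 151 CPM against 198 to 1226.

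Genotype values are CPM of the genes tested in each cell type, scaled by TMM factors, and a log2 fold change is ACKR2-/- over WT with its standard error (SE). In these sorted bulk samples, more or fewer cells of a type and more or less RNA per cell cannot be told apart. A call needed an adjusted p under 0.05 in edgeR's quasi-likelihood test and an absolute log2 fold change over 0.5.

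**Figure D1:**
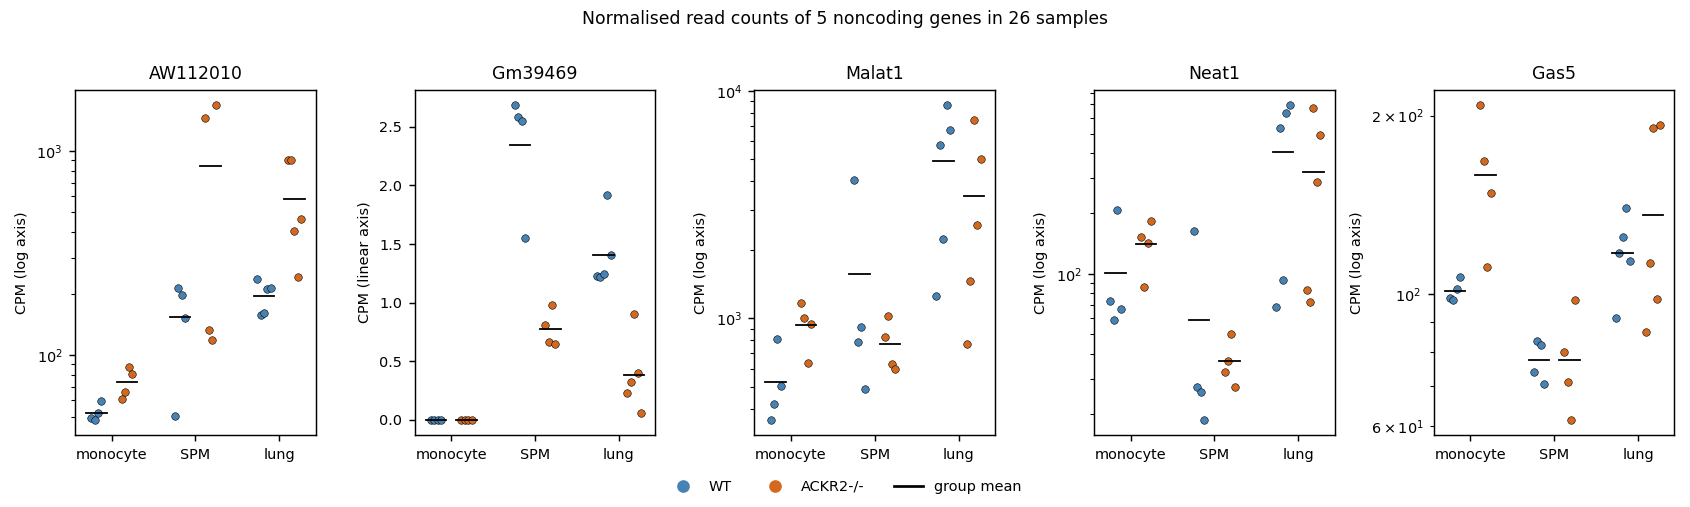
CPM (TMM scaled within a cell type) of the 5 genes in each of 26 samples, by cell type and genotype, with bars at group means; axes are logarithmic except for Gm39469. ACKR2-/- SPM replicates 1 and 4 stand at 1451 and 1671 CPM of AW112010, WT SPM replicate 1 stands at 4071 CPM of Malat1, and Gm39469 has 0 reads in all monocyte samples.

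AW112010 (ENSMUSG00000075010) was higher in ACKR2-/- than in WT samples in each cell type on average, but by different amounts and with very different spread. In monocytes the WT samples stood at 49.4, 48.3, 52.0 and 59.5 CPM and the ACKR2-/- samples at 61.3, 66.0, 87.6 and 80.8 CPM. The groups did not overlap, with the lowest ACKR2-/- sample just above the highest WT sample, and the log2 fold change was 0.50 (SE 0.14). No overlap, in either direction, was seen for 10.2% of all genes tested in monocytes. The T cell, B cell and monocyte marker sums given above also differed between genotypes without overlap in these samples, and their part in these values was not tested.

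In SPMs the WT samples stood at 50.5, 213, 197 and 152 CPM of AW112010, and the ACKR2-/- samples at 1451, 133, 119 and 1671 CPM. The genotypes overlapped, since ACKR2-/- replicates 2 and 3 lay within the WT range while replicates 1 and 4 lay far above it. The means were 153 ± 73.0 (SD, n = 4) and 844 ± 833 CPM (SD, n = 4). This log2 fold change, 2.46 (SE 0.83), rests on both high samples. WT replicate 1, the SPM sample with the high monocyte marker sum, was the lowest of the 8.

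The same pair of ACKR2-/- SPM samples was high in some other immune genes and low in others. A list of 30 interferon-gamma response genes summed to 3742 CPM in replicate 1 and 3575 in replicate 4, against 1535 and 1726 in replicates 2 and 3 and 1091 to 2000 in WT. Within it Cxcl9, a chemokine that draws T cells and was picked after its values were seen, stood at 56.5 and 61.2 CPM in the high samples and at 1.06 to 4.03 in the other 6. Marco, a scavenger receptor also picked after the fact, stood at 206 and 311 CPM against 5.85 to 31.6. A list of 4 large peritoneal macrophage markers summed to 1157 and 1368 against 260 to 633, but its markers did not rise alike. Of this list Timd4 stood at 126 and 185 CPM in the high samples against 29.2 to 177 in the other 6, with overlap. Gata6 was low, at 2.84 and 3.72 CPM in the high samples against 0.929 to 2.49. The list also holds Icam2 and Prg4, whose values by sample are not given here. The part of these genes in the AW112010 values was not tested. NK cell marker sums in those samples were 158 and 198 CPM against 41.2 to 137 in the others. T cell marker sums there were 281 and 231 CPM, against 391 and 417 in ACKR2-/- replicates 2 and 3 and 253 to 505 in WT. Dendritic cell marker sums were 524 and 198 CPM, against 884 and 1061 in replicates 2 and 3 and 151 to 1226 in WT.

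By the genotype test 26 of the 27 measured interferon-gamma response genes had a positive log2 fold change in SPMs, with a median of 1.02 against -0.05 over all genes tested, and 0 were called by edgeR or by DESeq2. The 4 of highest mean level were the immunoproteasome genes Psmb8 (log2 fold change 0.39, SE 0.33), Psmb10 (0.48, SE 0.31) and Psmb9 (0.55, SE 0.34), and the GTPase gene Ifi47 (1.18, SE 0.46). The exception was Ciita, the activator of MHC class II transcription, at -0.32 (SE 0.30). In monocytes 12 of 25 were positive with a median of -0.10, and in lung 20 of 28 with a median of 0.20, again with 0 called by edgeR in either (DESeq2 called 1 lower in monocytes and 0 in lung). The ligand Ifng could be tested only in lung, where it stood at 6.90 ± 4.06 CPM in WT and 25.2 ± 16.4 CPM in ACKR2-/- samples (SD, n = 5) with an adjusted p of 1.00 from edgeR. The receptor genes Ifngr1 and Ifngr2 and the kinase genes Jak1 and Jak2 were tested in every cell type with 0 called. Of all genes edgeR called 1.27% in monocytes, 0.0462% in SPMs and 0% in lung.

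**Figure D2:**
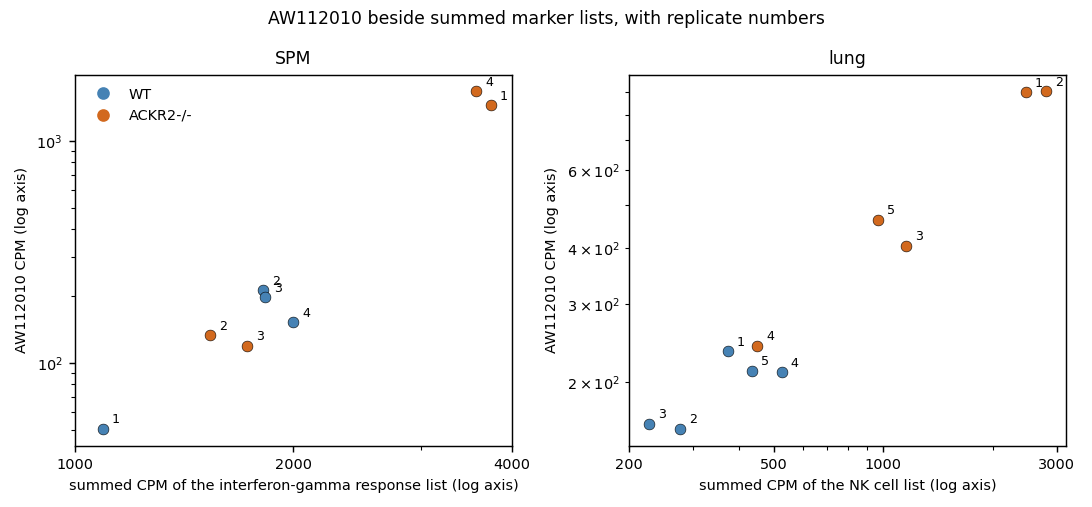
AW112010 (CPM, log axis) against the summed CPM (log axis) of the interferon-gamma response list in SPMs and of the NK cell list in lung samples, 1 point per sample with its replicate number. ACKR2-/- SPM replicates 1 and 4 lie at the upper right with list sums of 3742 and 3575 CPM, and ACKR2-/- lung replicates 1 and 2 lie there with list sums of 2463 and 2803 CPM.

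In lung macrophages the WT samples stood at 235, 157, 161, 210 and 212 CPM of AW112010, and the ACKR2-/- samples at 900, 903, 406, 242 and 464 CPM. The genotypes did not overlap, but ACKR2-/- replicate 4, at 242 CPM, lay just above WT replicate 1. ACKR2-/- over WT, this came to a log2 fold change of 1.58 (SE 0.34), 1.57 without the WT libraries of replicates 3 and 5, and 1.82 without WT replicate 5 and ACKR2-/- replicate 4. Groups without overlap made up 0.446% of genes tested in lung, and AW112010 was chosen from this contrast.

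NK cell markers, genes of cytotoxic lymphocytes, followed the same order at the top of the lung samples. The 8 markers summed to 2463, 2803, 1153, 449 and 966 CPM in ACKR2-/- replicates 1 to 5, and to 227 to 526 in WT samples. ACKR2-/- replicates 1 and 2 were highest in AW112010 and in this sum, and replicate 4 was lowest of its group in both. Single markers were mixed in ACKR2-/- replicate 5. There Gzma (458 CPM) and Klrb1c (26.1 CPM) lay above all WT samples, Prf1 (33.8 CPM) within their range and Ncr1 (9.41 CPM) below it. All 8 markers had positive log2 fold changes (median 2.08), with 0 called by edgeR and 4 by DESeq2, and T cell marker sums were 93.9 to 599 CPM in ACKR2-/- and 111 to 384 in WT. Their part in the AW112010 values was not tested.

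Gm39469 (ENSMUSG00000110834) was measured at low counts, and was lower in ACKR2-/- samples in both macrophage types. SPMs had 56, 50, 29 and 42 reads in WT and 21, 18, 38 and 24 in ACKR2-/- samples, which came to 2.68, 2.58, 2.55 and 1.55 CPM against 0.805, 0.660, 0.979 and 0.646 CPM. The genotypes did not overlap, as was so for 3.4% of genes tested in SPMs, and the log2 fold change was -1.59 (SE 0.31).

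Lung samples had 26, 30, 24, 49 and 28 reads of Gm39469 in WT and 7, 9, 21, 10 and 1 in ACKR2-/- samples. Their levels were 1.23, 1.22, 1.24, 1.92 and 1.41 CPM against 0.230, 0.325, 0.903, 0.402 and 0.0532 CPM. Again the groups did not overlap, and the log2 fold change was -1.86 (SE 0.61), -1.87 without WT replicates 3 and 5, and -1.86 without WT replicate 5 and ACKR2-/- replicate 4. Counting error is large at these depths, since ACKR2-/- replicate 5 rests on 1 read and replicate 3, with 21 reads, came closest to WT. Without ACKR2-/- replicate 3 the log2 fold change was -2.43 and without replicate 5 it was -1.58. Monocytes had 0 reads in all 8 samples, which allows at most 0.156 to 0.194 CPM, so no genotype difference was detectable there.

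Of its closest relatives in sequence, with its neighbour, 6 could be tested in monocytes and 8 in each macrophage type, and 0 were called by edgeR. Of all genes edgeR called 1.27% in monocytes, 0.0462% in SPMs and 0% in lung, so the lack of calls here says little. The log2 fold changes of these relatives and the neighbour lay between -0.12 and 0.16 in SPMs and between -0.94 and 0.81 in lung. Zfp932 had log2 fold changes of 0.02 (SE 0.25) in SPMs and 0.02 (SE 0.45) in lung. The neighbour 2010315B03Rik, 9665 bp away and 91.3% identical over exon 2, stood at 10.2 ± 1.69 CPM in WT and 9.38 ± 1.37 CPM in ACKR2-/- SPMs (SD, n = 4), and its log2 fold change was -0.12 (SE 0.21, adjusted p = 0.905 from edgeR). In lung its log2 fold change was 0.24 (SE 0.27). In monocytes it had 2 reads over all 8 samples.

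Gm39469 lies 2.36 Mb from Ackr2 on chromosome 9, next to a cluster of chemokine receptor genes. None of the tested genes within 500 kb was called by edgeR in SPMs or lung, where edgeR called 0.0462% and 0% of all genes. Ccr2, the main receptor for monocyte recruitment, had a log2 fold change of -1.19 (SE 0.36, adjusted p = 0.788) in SPMs without overlap. In monocytes Ccr1 rose by 1.21 (SE 0.15, adjusted p = 0.00129 from edgeR) and Cxcr6, a receptor found on T cells, by 3.83 (SE 0.38, adjusted p = 3.13e-04) on the log2 scale, in the samples in which T cell markers rose. No tested gene within 100 kb of AW112010, Malat1, Neat1 or Gas5 was called by edgeR. Its shares of all genes called were 1.27% in monocytes, 0.0462% in SPMs and 0% in lung.

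**Figure D3:**
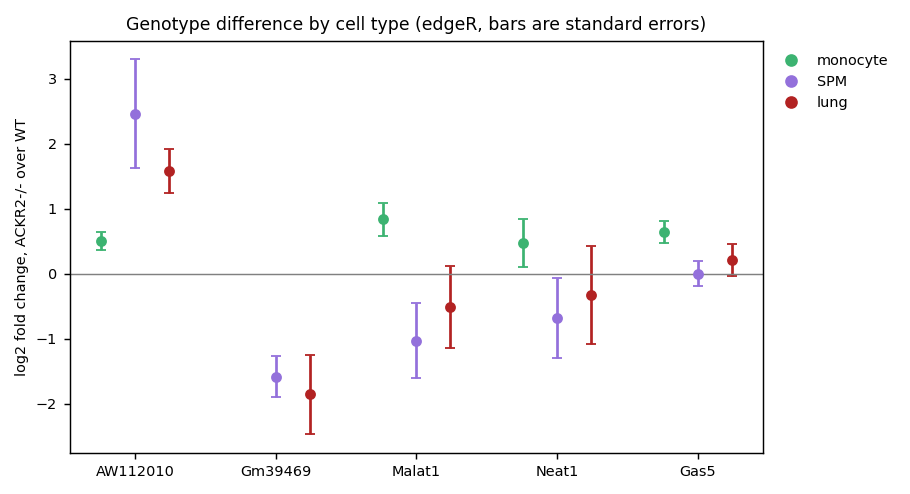
Log2 fold change of ACKR2-/- over WT from edgeR for each gene and cell type, with bars of 1 standard error; Gm39469 has no point for monocytes, where it had 0 reads. Malat1 and Neat1 points lie above 0 in monocytes (0.84 and 0.48) and below it in SPMs (-1.03 and -0.68) and lung (-0.51 and -0.33), and none was called; without WT SPM replicate 1 the SPM values were 0.073 and 0.63, and without WT lung replicate 5 the Neat1 lung value was 0.0051.

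Malat1 (ENSMUSG00000092341) was not called between genotypes in any cell type, nor were Neat1 and Gas5, in comparisons that called 1.27% of 13246 genes in monocytes, 0.0462% of 12997 in SPMs and 0% of 16824 in lung. In lung 499 genes had an unadjusted p under 0.05 in edgeR. DESeq2 called 3.73% of genes in monocytes, 0.254% in SPMs and 0.0713%, or 12 genes, in lung. Malat1 spans 5795690 to 5802672 on chromosome 19, minus strand, as a single exon of 6983 bases. Libraries were made by poly-A selection, and Malat1 and the long form of Neat1 lack an ordinary poly-A tail, so their levels here depend on how much of them the selection kept.

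In monocytes Malat1 stood at 358, 421, 814 and 504 CPM in WT and 1168, 1002, 633 and 941 CPM in ACKR2-/- samples. The lowest ACKR2-/- sample, replicate 3, lay below the highest WT sample, also replicate 3, and the other ACKR2-/- samples lay above all WT samples. The log2 fold change was 0.84 (SE 0.26, adjusted p = 0.141 from edgeR), and an exact two-sided permutation test gave p = 0.0571 (0.257 adjusted over 9 tests), where 0.0286 is the lowest that 4 against 4 can give. DESeq2 did call it (adjusted p = 0.0310; range over the alternatives that kept all samples 0.0310 to 1). T cell markers were higher and monocyte markers lower in the ACKR2-/- samples, and their part was not tested.

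In SPMs Malat1 stood at 4071, 789, 918 and 487 CPM in WT and at 825, 1021, 629 and 598 CPM in ACKR2-/- samples. Apart from WT replicate 1 the genotypes covered the same range. Its log2 fold change of -1.03 (SE 0.57, adjusted p = 0.788 from edgeR) became 0.073 (SE 0.25) without that sample, in which the monocyte marker sum of 5124 CPM was the highest of the SPM samples, and its part was not tested.

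Lung Malat1 levels were 1249, 5773, 2238, 8623 and 6723 CPM in WT and 769, 1462, 7437, 2580 and 5010 CPM in ACKR2-/- samples. The highest sample stood 6.90-fold above the lowest in WT and 9.67-fold in ACKR2-/- mice, and the groups overlapped widely. Between genotypes the log2 fold change was -0.51 (SE 0.64, adjusted p = 1.00 from edgeR), -0.55 without WT replicates 3 and 5, and -0.26 without WT replicate 5 and ACKR2-/- replicate 4. Exact permutation tests gave p = 0.629 in SPMs and 0.460 in lung.

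An antisense gene model inside Malat1, Gm37376, showed how counting bears on this locus. It had 0 reads in all monocyte and SPM samples but 750918 reads in lung, at 0.764 to 0.812 of the Malat1 CPM in each of the 10 lung samples. The sources do not state whether counting used the strand, and reads of the gene and its antisense model cannot be told apart without it. The lung table was made in another format, with lines for unassigned reads, so levels set across tables carry that difference as well.

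Neat1 (ENSMUSG00000092274) spans 5824708 to 5845478 on the same strand of chromosome 19, with a gap of 22036 bp to Malat1. In monocytes it stood at 73.1, 58.8, 207 and 66.8 CPM in WT and 152, 86.2, 142 and 183 CPM in ACKR2-/- samples. WT replicate 3 was the highest of the 8, and the remaining WT samples lay below every ACKR2-/- sample. The log2 fold change was 0.48 (SE 0.37, adjusted p = 0.537 from edgeR).

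In SPMs Neat1 stood at 164, 27.2, 25.8 and 18.8 CPM in WT and 32.5, 37.0, 50.4 and 27.3 CPM in ACKR2-/- samples. WT replicate 1, which was also high in Malat1 and in monocyte markers, stood far above the rest, and the other WT samples lay below every ACKR2-/- sample. Its log2 fold change of -0.68 (SE 0.61, adjusted p = 0.808 from edgeR) became 0.63 (SE 0.22, adjusted p = 0.607) without that sample. DESeq2 gave no adjusted p for Neat1 in SPMs.

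Lung Neat1 stood at 68.2, 532, 93.3, 629 and 690 CPM in WT and 82.8, 72.0, 673, 287 and 491 CPM in ACKR2-/- samples. Both genotypes had samples at both ends of this range, and the groups overlapped. Between genotypes the log2 fold change was -0.33 (SE 0.75, adjusted p = 1.00 from edgeR), -0.30 without WT replicates 3 and 5, 0.0051 without WT replicate 5 alone and 0.030 without WT replicate 5 and ACKR2-/- replicate 4. Exact permutation tests of Neat1 gave p = 0.257 in monocytes, 1 in SPMs and 0.667 in lung, with no value under 0.257 after adjustment over the 9 tests.

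Malat1 and Neat1 varied together from sample to sample in SPMs and lung, and less so in monocytes. Over deviations of log2 CPM from the group means in 26 samples Pearson's r was 0.91 and Spearman's rho 0.85, and within cell types r was 0.60 in 8 monocyte, 0.92 in 8 SPM and 0.96 in 10 lung samples, with rho at 0.38, 0.74 and 0.88. These points share the library, its depth and its amplification, so the values are a description. AW112010 deviations had r = -0.41 with Malat1 and -0.43 with Neat1, and the remaining pairs lay between -0.20 and 0.48. Gm39469, with no reads in monocytes, varied only in the SPM and lung samples.

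**Figure D4:**
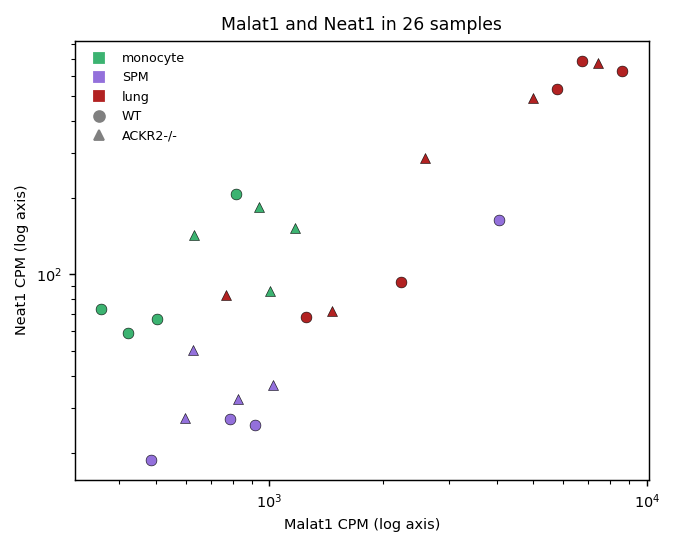
Neat1 against Malat1 (CPM, log axes) in 26 samples, with colour for cell type and shape for genotype. Lung samples run from 769 CPM of Malat1 and 82.8 CPM of Neat1 to 8623 and 629 CPM, and WT SPM replicate 1, at 4071 and 164 CPM, lies away from the other SPM samples.

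The genes most like each member in these deviations were read from 10173 genes with a mean of at least 1 CPM in every cell type. Malat1 was closest to Gm45220 (r = 0.95), Gm42820 (0.95), Spag9 (0.94), Luc7l3 (0.94), a splicing factor gene, and Nktr (0.93). Neat1 was closest to A130071D04Rik (0.97), Ogt (0.96), the gene of the O-GlcNAc transferase, Gm44164 (0.96), Gm42820 (0.95) and Prkab2 (0.95), so that Gm42820 appeared for both. AW112010 was closest to Layn (0.91), Il18bp (0.88), which encodes the secreted inhibitor of IL-18, Fpr1 (0.88), a receptor for bacterial peptides, Hp (0.87) and Ifi205 (0.87), an interferon-inducible gene. Gm39469 had no reads in monocytes, so its deviations were constant there and its values rest on SPM and lung samples. At low counts it had weaker ties, the highest with Snapc3 (0.68), Trip4 (0.68), Hook2 (0.67), Nemf (0.66) and Rmnd1 (0.66). Spearman's rho for these ran from 0.59 to 0.95, and as above the samples share library and depth.

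Proteins of the bodies that Neat1 and Malat1 mark gave 0 calls between genotypes by edgeR in any cell type. Of 20 paraspeckle protein genes 10 were higher in ACKR2-/- monocytes, 7 in SPMs and 9 in lung, with median log2 fold changes of -0.04, -0.17 and -0.01. Nono, a core paraspeckle protein gene, had -0.09 (SE 0.13), -0.05 (SE 0.19) and 0.10 (SE 0.13). Of 19 nuclear speckle protein genes 11, 6 and 7 were higher, with medians of 0.09, -0.31 and -0.04. Srsf3, a splicing factor gene, had 0.05 (SE 0.15), 0.08 (SE 0.22) and 0.00 (SE 0.15). Medians over all genes were 0.00, -0.05 and -0.04. DESeq2 called 1 paraspeckle gene higher in monocytes.

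Gas5 (ENSMUSG00000053332) stood at 98.7, 97.7, 102 and 107 CPM in WT monocytes and 208, 168, 111 and 148 CPM in ACKR2-/- monocytes. The WT samples were tightly grouped and every ACKR2-/- sample lay above them, replicate 3 by the least. The log2 fold change was 0.65 (SE 0.17, adjusted p = 0.0883 from edgeR), short of the threshold. The exact permutation test gave p = 0.0286, the smallest it can give, and 0.257 when adjusted over 9 tests. Of the 3 tested members it alone had no overlap in monocytes, against 10.2% of all genes. DESeq2 called it (adjusted p = 0.0131; range 0.0131 to 0.401 over the alternatives that kept all samples), and edgeR did without ACKR2-/- replicate 3 (0.80, adjusted p = 0.0133). Monocyte marker sums in ACKR2-/- replicates 1 to 4 were 10248, 13823, 15524 and 13171 CPM. T cell marker sums in the same samples were 99.2, 68.5, 98.0 and 121 CPM. Gas5 was highest in replicate 1 and lowest of its group in replicate 3, where the monocyte sum was lowest and highest. Replicate 2, however, had more Gas5 and a higher monocyte sum than replicate 4. T cell and B cell marker sums were higher in the ACKR2-/- samples, and the part of these signals was not tested.

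In SPMs Gas5 stood at 73.9, 83.5, 82.1 and 70.7 CPM in WT and 79.9, 71.3, 61.5 and 97.8 CPM in ACKR2-/- samples, with overlap in both directions. Their log2 fold change was 0.00 (SE 0.19, adjusted p = 1.00 from edgeR). The means of 77.6 ± 6.23 and 77.6 ± 15.4 CPM (SD, n = 4) were alike, but the spread in ACKR2-/- samples was wider. In lung the levels were 91.3, 117, 125, 140 and 114 CPM in WT and 86.6, 113, 191, 98.3 and 193 CPM in ACKR2-/- samples. ACKR2-/- replicates 3 and 5 were high and the others lay within or below the WT range. Between genotypes the log2 fold change was 0.21 (SE 0.25, adjusted p = 1.00 from edgeR), 0.27 without WT replicates 3 and 5, and 0.32 without WT replicate 5 and ACKR2-/- replicate 4. Exact permutation tests gave p = 0.857 in SPMs and 0.556 in lung.

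The other noncoding snoRNA host genes were described beside Gas5. In monocytes all 13 tested had positive log2 fold changes with a median of 0.64, against 0.00 over all genes, and 1 was called by edgeR, which called 1.27% of all genes, while DESeq2 called 2 of the 13 and 3.73% of all genes. Their summed level was 99.2 to 124 CPM in WT and 232, 170, 115 and 178 CPM in ACKR2-/- replicates 1 to 4, so replicate 3 lay within the WT range. T cell markers were higher and monocyte markers lower in the same ACKR2-/- samples, and their part was not tested. The gene called by edgeR was Snhg20, at 20.4 ± 4.91 CPM in WT and 36.9 ± 6.33 CPM in ACKR2-/- monocytes (SD, n = 4), which rose by 0.86 (SE 0.19, adjusted p = 0.0495 from edgeR) on the log2 scale. Snhg1, the host gene whose deviations were most like those of Gas5 (r = 0.85), had 0.85 (SE 0.26, adjusted p = 0.136). In SPMs 6 of 13 and in lung 11 of 16 were positive, with medians of -0.06 and 0.08 and 0 called by edgeR or DESeq2.

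Gas5 deviations were next most like those of Epb41l4aos (0.79), E230032D23Rik (0.79), Rpl22l1 (0.76), a ribosomal protein paralogue, and Snhg6 (0.74), so that 3 of the 5 closest genes, with Snhg1, belong to the host gene list. Gas5 shares its locus with 10 snoRNA annotations and overlaps Zbtb37 on the opposite strand, which was low, at 1.19 CPM in WT monocytes, and was not called in any cell type.

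Of 17 other known long noncoding RNAs tested in monocytes 16 had positive log2 fold changes, with a median of 0.54, 0 called by edgeR and 3 by DESeq2, which called 1.27% and 3.73% of all genes. They summed to 297 to 357 CPM in WT and to 600, 420, 339 and 499 CPM in ACKR2-/- replicates 1 to 4, with replicate 3 again within the WT range, and the part of the T cell and monocyte marker shifts was not tested here either. Those of highest mean level were Xist (1.40, SE 0.41, adjusted p = 0.124), Dleu2 (0.22, SE 0.15), Lockd (0.20, SE 0.19) and Gm14005 (0.36, SE 0.13). In SPMs 8 of 19 and in lung 7 of 21 were positive, with medians of -0.09 and -0.06 and 0 called by edgeR or DESeq2.

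The genotype effect on Malat1, Neat1 and Gas5 was compared between cell types in a fit of all samples over 17792 genes. None of the 9 differences was called, in tests that called 0.253% of genes for SPMs against monocytes, 0.152% for lung against monocytes and 0.0393% for lung against SPMs. The largest was for Malat1 between SPMs and monocytes, -1.70 on the log2 scale (SE 0.84, adjusted p = 0.671 from edgeR), and for Gas5 in the same comparison it was -0.56 (SE 0.30, adjusted p = 0.677).

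Levels in WT mice were compared between cell types in the same fit, and no member was chosen on this comparison. AW112010 and Gm39469 were chosen on a genotype pattern that includes these WT values, so their p-values here are not free of that choice. Each cell type is a table of its own, so cell type and table cannot be told apart. To compare genes, CPM were divided by gene length in kilobases (RPKM), with values across tables scaled together by TMM.

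**Figure D5:**
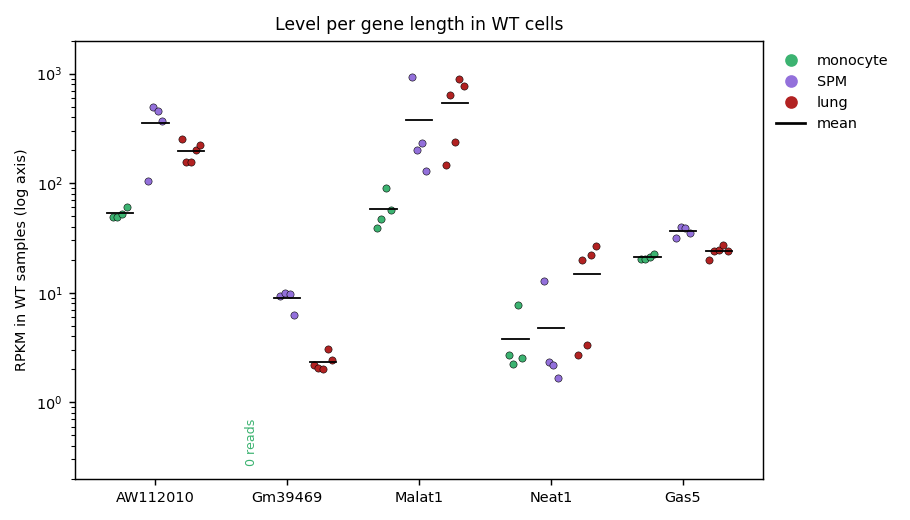
RPKM (log axis, scaled over all 26 samples) of the 5 genes in WT samples, 1 point per sample with bars at the means. AW112010 means are 53.1 in monocytes, 355 in SPMs and 197 in lung, Gm39469 has 0 reads in monocytes, and the signs of the Gas5 and Neat1 differences between SPMs and monocytes, and of the AW112010 and Gas5 differences between lung and SPMs, change without scaling factors.

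WT monocytes had 58.7 ± 22.6 RPKM of Malat1, 53.1 ± 5.58 of AW112010, 21.1 ± 1.04 of Gas5 and 3.81 ± 2.64 of Neat1 (SD, n = 4). The ranges of Malat1 (39.4 to 90.9) and AW112010 (49.2 to 61.1) overlapped, those of AW112010 and Gas5 (20.2 to 22.5) did not, and Neat1 lay below all (2.23 to 7.77). WT SPMs had 376 ± 377 RPKM of Malat1, 355 ± 175 of AW112010, 36.3 ± 3.71 of Gas5, 8.86 ± 1.76 of Gm39469 and 4.73 ± 5.32 of Neat1 (SD, n = 4). There Malat1 and AW112010 overlapped, as did Gm39469 (6.26 to 10.0) and Neat1 (1.68 to 12.7). WT lung macrophages had 540 ± 332 RPKM of Malat1, 197 ± 41.2 of AW112010, 24.1 ± 2.58 of Gas5, 14.9 ± 11.1 of Neat1 and 2.35 ± 0.43 of Gm39469 (SD, n = 5). Malat1 again overlapped AW112010, and Neat1 (2.71 to 26.6) overlapped Gas5 (20.02 to 27.2) and Gm39469 (2.01 to 3.05). Gas5 was divided by 3760 bases, the joint length of the exons of its 25 transcripts, which is longer than any one of them.

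Against WT monocytes, WT SPMs had more AW112010, Malat1 and Gas5, 3 of the 4 members with reads in monocytes, in a comparison that called 41.9% of genes. AW112010 was higher by 2.74 (SE 0.62, adjusted p = 7.70e-04 from edgeR), Malat1 by 2.68 (SE 0.63, adjusted p = 0.00113) and Gas5 by 0.78 (SE 0.21, adjusted p = 0.00362) on the log2 scale. Without scaling factors the AW112010 and Malat1 differences were 1.48 and 1.74, and relative to the median of all genes, which was -0.96 then and 0 with TMM, they were 2.44 and 2.70. Without WT SPM replicate 1 they were 3.04 and 1.67 (adjusted p = 2.80e-04 and 0.0170 from edgeR). Without scaling factors the Gas5 difference was -0.38, but relative to the median of all genes it was 0.78 with and 0.58 without them. Neat1 differed by 0.31 (SE 0.70, adjusted p = 0.785) and by -0.62 without scaling factors, or -0.89 without WT SPM replicate 1. WT SPMs had at least 117-fold more Gm39469 than the 3 reads over the 4 WT monocyte libraries that a count of 0 allows, a bound given with no test because Gm39469 passed the filter through its macrophage samples alone.

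WT lung macrophages had more AW112010, Malat1 and Neat1 than WT monocytes, again 3 of those 4, where 63.8% of genes were called. The log2 fold changes were 1.89 (SE 0.58, adjusted p = 0.00635 from edgeR) for AW112010, 3.20 (SE 0.63, adjusted p = 9.85e-05) for Malat1 and 1.97 (SE 0.71, adjusted p = 0.0171) for Neat1, while the median of all genes was 0.34. Relative to that median they were 1.55, 2.86 and 1.63. Gm37376, the antisense model inside Malat1, had 0 reads in monocytes and 750918 in lung. How this locus was counted may therefore enter the Malat1 difference, and its part was not tested. The Neat1 call was lost without WT monocyte replicate 2 or 4 (adjusted p = 0.0542 and 0.0517). Gm39469 was at least 31.0-fold higher on the same limit, again with no test, and Gas5 differed by 0.19 (SE 0.20, adjusted p = 0.410).

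Between WT lung macrophages and WT SPMs, where 62.3% of genes were called and their median was 0.41, Gm39469 and Gas5 were lower in lung and Neat1 higher. Gm39469 fell by 1.91 (SE 0.49, adjusted p = 0.00219 from edgeR) on the log2 scale, a difference of -2.32 relative to the median and of -0.67 (adjusted p = 0.261) without scaling factors. Gas5 fell by 0.59 (SE 0.20, adjusted p = 0.0114), but without scaling factors it was 0.67 higher, and relative to the median it was -1.004 with and -0.95 without them. Neat1 was higher by 1.66 (SE 0.70, adjusted p = 0.0411), a call lost without any 1 of WT SPM replicates 2, 3 and 4 or lung WT replicates 2, 4 and 5 (adjusted p up to 0.118). AW112010 differed by -0.85 (SE 0.55, adjusted p = 0.180) and by 0.49 without scaling factors, and Malat1 by 0.52 (SE 0.57, adjusted p = 0.433), or 1.52 (adjusted p = 0.0224) without WT SPM replicate 1. The limit on how the Malat1 locus was counted holds for this comparison too.

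In ACKR2-/- samples AW112010 stood 4.76 (SE 0.68) higher in SPMs and 3.01 (SE 0.61) higher in lung than in monocytes on the log2 scale, values that contain the genotype pattern for which it was chosen. Malat1 differed by 0.97 (SE 0.60, adjusted p = 0.204 from edgeR), which was not called, and by 1.85 (SE 0.59, adjusted p = 0.00853), which was. The limit on how the Malat1 locus was counted in lung holds here too. Neat1 differed by -0.68 (SE 0.71, adjusted p = 0.475 from edgeR) and 1.16 (SE 0.68, adjusted p = 0.141). Gas5 differed by 0.22 (SE 0.21) and -0.23 (SE 0.20), and neither Neat1 nor Gas5 was called.

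The lists gave the surroundings of these levels. Of 28 interferon-gamma response genes 13 were higher and 2 lower in WT SPMs than in monocytes, with a median of 0.98, and 12 and 2 in lung against monocytes, with a median of 1.02. Of 20 paraspeckle protein genes 1 was higher and 10 lower in SPMs than in monocytes (median -0.56), and 2 and 8 in lung against monocytes (median -0.38). Of 19 nuclear speckle protein genes 2 were higher and 8 lower in SPMs (median -0.12), and 5 and 3 in lung (median -0.09). Of 16 snoRNA host genes 4 were higher and 1 lower in SPMs (median 0.44), and 7 and 0 in lung (median 0.47). These shares stand beside the 41.9% and 63.8% of all genes called, and in SPMs against monocytes 52.1% of calls were higher with TMM, 60.2% with RLE and 16.2% without scaling factors.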

How the data were processed

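RNA was extracted from FACS sorted cells, selected for poly-A tails, amplified by the SMARTer method and sequenced by Novogene. The authors deposited raw read counts per gene, without normalization, in a table per cell type; the submitters' processing notes name HISAT2 2.0.5, featureCounts 1.5.0-p3, DESeq2 and build mm10, with no role or order. The lung table also held summary lines, 54.4% to 58.3% of its counts (45.1% to 48.9% not on a gene), which were left out, so its counting may differ. The strand setting of the counting is not given in the sources used. Reads of PCR copies were not told apart.

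The counts were analysed in R 4.3.3. Genes passed filterByExpr of edgeR 4.0.16 (minimum count 10, minimum total 15), library sizes were scaled by TMM, and genotypes were compared by the quasi-likelihood test with Benjamini-Hochberg adjustment over all genes tested. The 5 members passed this filter in every cell type, apart from Gm39469 in monocytes. Cell types and differences of the genotype effect were compared in 1 fit of 26 samples over genes that all tables list. Malat1, Neat1 and Gas5 were also tested by exact two-sided permutation of log2 CPM (prior count 1). Simulated counts with known changes were used to check the genotype fits, a contrast between cell types and a difference of the genotype effect. The permutation code was checked on values with a known answer, and other steps were not simulated. The labels number the replicates and say no more, so p-values measure the spread between these samples.

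Named genes were the members, the 5 genes most like each by Pearson's r, tested neighbours within 100 kb (500 kb for Gm39469), and, of each list, up to 4 called members or, with none called, up to 4 of highest mean level. Exceptions are named in the text. The members and lists were chosen with earlier results of these data known. The alternatives tried were RLE factors, DESeq2 1.42.0, no filter, the replicate number as a block, 1 fit of all samples, WT samples only, library sizes without scaling factors, CPM on the linear scale in the permutation test, and each sample left out. The lung fits without WT replicates 3 and 5 together, and without WT replicate 5 and ACKR2-/- replicate 4 together, were chosen after seeing the data. Sequences were read from RefSeq (GRCm38.p6) and GENCODE M21, and alignments were made with BLAST+ 2.17.0.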

Additional observations from a re-analysis of the deposited data

Results flagged for a closer look

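Of 28 groups of samples examined for a sample far from the others by Dixon's test on CPM, 5 held one. Its level of about 1 in 20 holds for independent groups of normally distributed values. The groups here share libraries, so the count is a description. WT SPM replicate 1 stood at 4071 CPM of Malat1 and 163.9 CPM of Neat1, against 487 to 918 and 18.8 to 27.2 in the other WT SPM samples. The same library was the lowest SPM sample in AW112010, at 50.5 CPM, and in the marker sums of large peritoneal macrophages, at 260 CPM, and dendritic cells, at 151 CPM, and its monocyte marker sum was 5124 CPM against 1379 to 1935 in the other 7 SPM samples. Their part in its Malat1 and Neat1 levels was not tested. WT monocyte replicate 3 stood at 206.9 CPM of Neat1, against 58.8 to 73.1. For Gm39469, WT SPM replicate 4 was low at 1.55 CPM and WT lung replicate 4 was high at 1.92 CPM, which rest on 42 and 49 reads.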

How the results depend on the processing

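Most results kept their direction and side of the threshold. The number of genes called between genotypes was 168 in monocytes, 6 in SPMs and 0 in lung. DESeq2 gave 494, 33 and 12, no filter 346 in monocytes and 52 in SPMs, and 1 fit of all samples 1 in lung. Leaving out 1 sample gave 76 to 413 in monocytes (76, 82, 99 and 87 without WT replicates 1 to 4, 413 and 96 without ACKR2-/- replicates 3 and 4) and 3 to 8 in SPMs (3 without ACKR2-/- replicate 2). Genes with a different genotype effect between cell types numbered 45 (SPM against monocyte), 27 (lung against monocyte) and 7 (lung against SPM). DESeq2 gave 130, 109 and 19 and no filter 42 for lung against monocyte, and leaving out 1 sample gave 29 to 58, 13 to 53 and 4 to 7.

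Of the members, DESeq2 called Malat1 (0.84) and Gas5 (0.66) in monocytes, and Gas5 was also called with no filter (0.63, adjusted p = 0.0429; range over alternatives 0.0131 to 0.401). Leaving out 1 sample gave 0.49 to 0.80 for Gas5 in monocytes. Gas5 in SPMs, near 0, turned to -0.00616 with DESeq2 and -0.00651 with RLE factors, and ran from -0.13 to 0.10 over samples left out. Over samples left out, Malat1 in SPMs ran from -1.32 to 0.073, Neat1 from -0.97 to 0.63 in SPMs and -0.79 to 0.0051 in lung, and Gm39469 in lung from -2.43 to -1.58; without WT replicate 5 and ACKR2-/- replicate 4, Neat1 in lung was 0.030. Between WT cell types, Neat1 for lung against SPM was not called with RLE factors (1.54, adjusted p = 0.0527) or with WT samples only (1.61, adjusted p = 0.0724), where AW112010 was called (-0.85, adjusted p = 0.0333). Without scaling factors, SPM against monocyte gave -0.62 for Neat1 and -0.38 for Gas5, and lung against SPM gave 0.49 for AW112010, -0.67 for Gm39469, 1.58 for Malat1 (called) and 0.67 for Gas5. Over samples left out Neat1 ran from -0.89 to 0.91 (SPM against monocyte), 1.65 to 2.58 (lung against monocyte) and 1.34 to 2.85 (lung against SPM), and Malat1 from 0.25 to 1.52 (lung against SPM). Differences of the genotype effect ran from -1.59 to 0.21 for Neat1 (SPM against monocyte), and for lung against SPM from -0.64 to 0.64 for Malat1 and -1.01 to 0.50 for Neat1. The cause of these changes was not tested.

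The labels give the genotypes shared replicate numbers, and same-number deviations correlated by -0.13 to 0.69. The highest were 0.69 for lung replicate 1, 0.37 for monocyte replicate 2 and 0.31 for lung replicate 5. Whether samples of the same number were processed together is not stated and cannot be told from these values. With the replicate block Gas5 in SPMs was -0.0166, Gm39469 in lung -2.16, and the lung against SPM differences of the genotype effect were -0.23 for Malat1 and -0.38 for Neat1. Depth limits Gm39469 above all, at 1 to 56 reads per macrophage sample.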
